A study of Mus musculus with 17 samples.

Results

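The D cyclins, their kinase partner Cdk6 and the inhibitors of cyclin-dependent kinases were followed through RNA sequencing libraries of mouse fetal liver cells. The set held 10 genes of the 47069 in the table of the transgene experiment, and they were chosen by gene symbol: Ccnd1, Ccnd2, Ccnd3, Cdk6, Cdkn1a, Cdkn1b, Cdkn1c, Cdkn2b, Cdkn2c and Cdkn2d. All 10 passed the filter on low counts in every comparison. The study asked what follows in fetal liver cells with an edited Gata1 gene when the level of the transcription factor Arid3a is changed.

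The 17 libraries fell into 6 groups, and the cells were taken at E12.5-13.5 from embryos of a B6J.129(Cg) mouse strain whose Gt(ROSA)26Sor locus carries the allele tm1.1(CAG-cas9*,-EGFP)Fezh, which makes Cas9 and EGFP. All groups but WT carried the guide sgGata1 and are named Gata1s-FLCs, fetal liver cells that make the short form of GATA1. Their second transgene was LUC (luciferase, 3 libraries) or Arid3a (3 libraries), with doxycycline at 1 µg/mL for 48 h. In the other Gata1s groups it was sh-ctrl (a control hairpin, 3 libraries), shArid3a (2 libraries) or miR-125b (a microRNA, 3 libraries), with the same dose of doxycycline for 10 days. The WT group (3 libraries) carried sgLuc and shLuc and had no doxycycline. Replicate 2 of shArid3a is not analysed here. The labels do not say whether libraries of a group came from separate cultures or embryos, so p-values measure only the spread between these libraries, which may be technical.

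D-type cyclins bind the kinases CDK4 and CDK6, and the complexes phosphorylate the retinoblastoma proteins, which releases E2F factors and lets a cell enter S phase. CDK inhibitors of the INK4 family (Cdkn2b, Cdkn2c, Cdkn2d) bind CDK4 and CDK6 and block them, while those of the CIP/KIP family (Cdkn1a, Cdkn1b, Cdkn1c) bind a wider range of cyclin and kinase complexes. In megakaryocytes, the platelet precursors, D cyclins are known for a part in growth and endomitosis, and GATA1 is known as a regulator of cyclin D1 and of inhibitor genes in this lineage.

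Library totals ranged from 31339238 to 38678649 reads in the table of the LUC and Arid3a groups, from 31992089 to 40859301 in the table of the hairpin and miR-125b groups and from 16362439 to 19212193 in the WT table. Arid3a itself was at 67.1 ± 3.08 CPM in LUC (CPM, counts scaled to the size of the library; SD, n = 3) and at 70.9 ± 11.3 CPM in the libraries labelled Arid3a (SD, n = 3), so the transgene was not seen as a higher count; reads of a transgene without the counted sequence would not appear there. Arid3a fell from 52.9 ± 6.70 CPM in sh-ctrl (SD, n = 3) to 19.7 ± 1.03 in shArid3a (SD, n = 2) and to 8.97 ± 1.60 in miR-125b (SD, n = 3), with edgeR adjusted p of 0.0368 and 0.000282. The call with miR-125b was made in all 14 alternative analyses and that with shArid3a in 8 of 13. The latter was lost without ribosomal RNA-like genes (edgeR adjusted p 0.0523), sh-ctrl replicate 2 (0.109) or 3 (0.171), or shArid3a replicate 1 (0.0683) or 3 (0.461). The labelled source is fetal liver, and hepatocyte markers summed to at most 5.84 CPM over 7 genes in any library, while 10 megakaryocyte markers summed to between 3442 and 5735 CPM in the Gata1s libraries and to between 1909 and 2001 CPM in WT. Myeloid markers summed to between 12398 and 14409 CPM over 10 genes in WT and to between 13.6 and 170.3 in the Gata1s libraries. In bulk RNA, fewer cells of a type and less RNA per cell cannot be told apart.

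**Figure D1:**
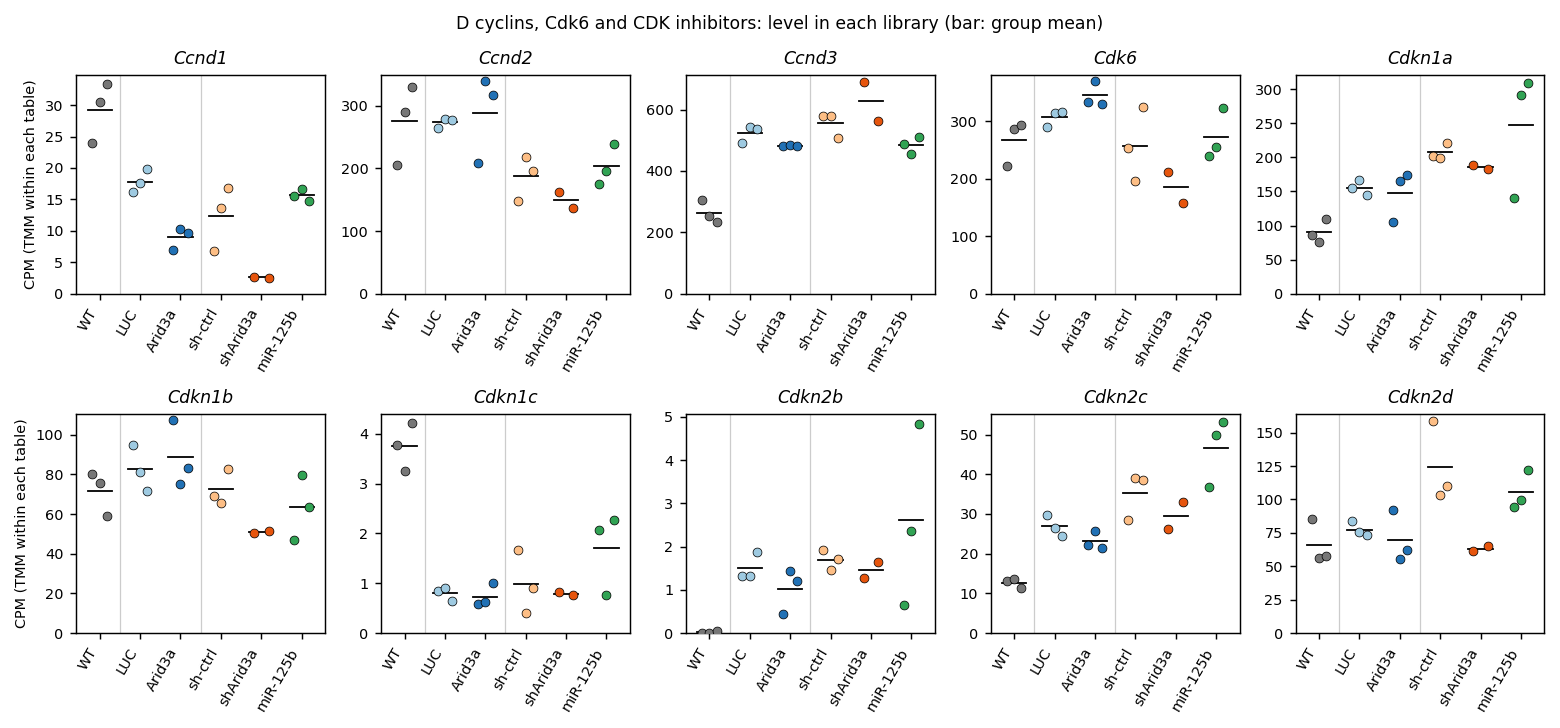
Level of each of the 10 genes in each library, in CPM scaled within each of the 3 tables. Each point is a library, the bar is the group mean, and grey lines part the tables. Ccnd1 was at 2.72 and 2.48 CPM in the shArid3a libraries and at 6.78 CPM or above in every other library, and Cdkn2b was at 0 to 0.0520 CPM in WT.

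Ccnd1, which encodes cyclin D1, lies on chromosome 7 from 144929931 to 144939925 on the minus strand (GENCODE M21, GRCm38, used for all positions of genes here). It was the D cyclin whose level varied most over the groups. In WT it was at 23.9, 30.5 and 33.3 CPM, in LUC at 16.2, 17.6 and 19.8, and in miR-125b at 15.5, 16.6 and 14.8. In sh-ctrl it was at 6.78, 13.6 and 16.8 CPM, in the libraries labelled Arid3a at 7.0, 10.2 and 9.62, and in shArid3a at 2.72 and 2.48. The highest group mean, 29.2 ± 4.82 CPM (SD, n = 3), belonged to WT and the lowest, 2.60 ± 0.171 (SD, n = 2), to shArid3a, where the gene rested on 100 and 84 reads. WT and LUC did not overlap, LUC and miR-125b did, and sh-ctrl spanned the values of miR-125b and of the libraries labelled Arid3a. The 3 tables were scaled separately, so an order of levels that crosses tables is a description. With all libraries scaled together the means were 26.2 CPM in WT, 17.4 in miR-125b and 16.4 in LUC, which changes the order of LUC and miR-125b.

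Ccnd2 encodes cyclin D2 (chromosome 6, 127125162 to 127152193, minus strand). Its libraries were at 206, 289.8 and 329.7 CPM in WT, 265, 279.5 and 278 in LUC and 209, 339.9 and 317 in those labelled Arid3a. They were at 149, 219 and 195 CPM in sh-ctrl, 162 and 137 in shArid3a and 175, 197 and 238 in miR-125b. The WT, LUC and Arid3a groups overlapped with each other, and sh-ctrl overlapped with shArid3a and with miR-125b, while shArid3a lay below miR-125b.

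Ccnd3 encodes cyclin D3, the D cyclin with the highest level per kilobase of exon in every Gata1s group (chromosome 17, 47505051 to 47599691, plus strand). In WT its mean was 30.0 CPM per kb beside 29.2 for Ccnd2, with overlap. Its WT libraries were at 304, 252 and 234 CPM, below every Gata1s library, of which the lowest was a miR-125b library at 454 CPM. In LUC it was at 492, 542 and 537 CPM, and in the libraries labelled Arid3a at 481, 483 and 481. In sh-ctrl it was at 580.4, 579.7 and 506 CPM, in shArid3a at 691 and 564, and in miR-125b at 486, 454 and 511. Guide, second transgene, doxycycline, table and the sums of cell type markers given above all differ between WT and the Gata1s groups. Their parts in that difference cannot be told apart. An annotated Ccnd3 pseudogene, Ccnd3-ps, had at most 6 reads in a library.

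Cdk6 (chromosome 5, 3341485 to 3531008, plus strand), the kinase that cyclin D1, D2 and D3 bind, was at 221, 286 and 293 CPM in WT and at 289.6, 315 and 316 in LUC. It was at 333, 370.3 and 330.0 CPM in the libraries labelled Arid3a and at 253, 195 and 324 in sh-ctrl. In shArid3a it was at 211 and 158 CPM, and in miR-125b at 239, 255 and 322. The libraries labelled Arid3a lay above those of LUC. In the other table sh-ctrl overlapped with shArid3a and with miR-125b, and shArid3a lay below miR-125b.

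Among the CIP/KIP inhibitors, Cdkn1a, which encodes p21 and is a known target of p53 (chromosome 17, 29090976 to 29100727, plus strand), had the most RNA. It was at 86.9, 75.8 and 110.1 CPM in WT, 155, 166 and 144 in LUC and 105, 165 and 174 in the libraries labelled Arid3a. In sh-ctrl it was at 202, 198 and 221 CPM, in shArid3a at 189 and 183, and in miR-125b at 140.3, 292 and 309.8. The miR-125b group thus held both the lowest and the highest Cdkn1a value of its table, the lowest in replicate 1. Cdkn1b, which encodes p27 (chromosome 6, 134920401 to 134925513, plus strand), stayed between 46.9 CPM, in miR-125b replicate 1, and 108 CPM, in replicate 1 of the libraries labelled Arid3a. The shArid3a libraries were at 50.7 and 51.6 CPM of Cdkn1b, below the sh-ctrl libraries at 69.1, 65.7 and 82.9. Cdkn1c, which encodes p57 (chromosome 7, 143458339 to 143461050, minus strand), was scarce, with 14 to 90 reads in each library. It was at 3.78, 3.26 and 4.21 CPM in WT and at most 2.27 CPM, in miR-125b replicate 3, in the Gata1s libraries.

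Of the INK4 inhibitors, Cdkn2d, which encodes p19 of that family (chromosome 9, 21288410 to 21291407, minus strand), was at 85.2, 56.3 and 57.3 CPM in WT, 83.5, 75.7 and 73.1 in LUC and 92.0, 55.6 and 62.4 in the libraries labelled Arid3a. It was at 159, 103 and 109.8 CPM in sh-ctrl, 61.5 and 65.0 in shArid3a and 94.1, 99.5 and 122 in miR-125b. The shArid3a libraries lay below all 6 other libraries of their table. Cdkn2c, which encodes p18 (chromosome 4, 109660876 to 109667189, minus strand), was at 13, 13.6 and 11.4 CPM in WT, below every Gata1s library, where it ran from 21.5 CPM in a library labelled Arid3a to 53.1 in a miR-125b library. Its values were 28.4, 39.1 and 38.5 CPM in sh-ctrl, 26.1 and 32.9 in shArid3a and 36.8, 49.9 and 53.1 in miR-125b. Cdkn2b, which encodes p15 (chromosome 4, 89306299 to 89311039, minus strand), had 0, 0 and 1 reads in the WT libraries. Zero reads allow a level of up to 0.183 and 0.160 CPM in WT replicates 1 and 2 (3 counts per library, for counting error only). It was between 0.441 and 1.87 CPM in the LUC and Arid3a groups, between 1.28 and 1.92 in sh-ctrl and shArid3a, and at 0.637, 2.37 and 4.83 CPM in miR-125b.

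Levels of different genes were compared per kilobase of exon, with the exon length given in the WT table. That length covers the annotated exons of a gene, not the transcript that the cells made. The order and the shares below therefore depend on the annotation. For Cdkn1a the length was 2223 bases, while its exons in GENCODE M21 cover 3553, with which its level per kb would be lower. In LUC the order ran from Cdkn1a, at 69.8 CPM per kb, through Cdkn2d, at 60.9, and Ccnd3, at 59.7, to Ccnd2, at 29.1. Cdk6 followed at 21.9 CPM per kb, Cdkn1b at 18.1, Cdkn2c at 10.0, Ccnd1 at 3.79, Cdkn2b at 1.08 and Cdkn1c at 0.391. Libraries of Cdkn1a and Cdkn2d, of Cdkn2d and Ccnd3, and of Cdk6 and Cdkn1b overlapped in LUC, and the other neighbours did not. Ccnd1 was the scarcest of the 3 D cyclins in every group, at between 0.552 CPM per kb in shArid3a and 6.21 in WT. In shArid3a alone it also lay below Cdkn2b, which was at 1.05 CPM per kb there, with no overlap of the libraries.

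The make-up of the D cyclin RNA differed between groups while its sum stayed in a narrower range. Per kilobase, the 3 genes summed to 65.4 CPM in WT and to between 80.1 CPM, in miR-125b, and 92.6 CPM, in LUC, in the Gata1s groups. Ccnd3 made up 46.2% of that sum in WT (SD 9.04, n = 3), 64.4% in LUC and 63.1% in the libraries labelled Arid3a. Its share was 73.8% in sh-ctrl, 81.3% in shArid3a and 68.9% in miR-125b. The 2 shArid3a libraries, at 81.0% and 81.6%, lay above all 15 others, of which the highest was a sh-ctrl library at 79.3%. Ccnd1 made up 9.45% in WT, 4.09% in LUC, 2.16% in the libraries labelled Arid3a, 3.07% in sh-ctrl, 0.630% in shArid3a and 4.17% in miR-125b. Ccnd2 made up the rest, from 18.1% in shArid3a to 44.4% in WT.

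**Figure D2:**
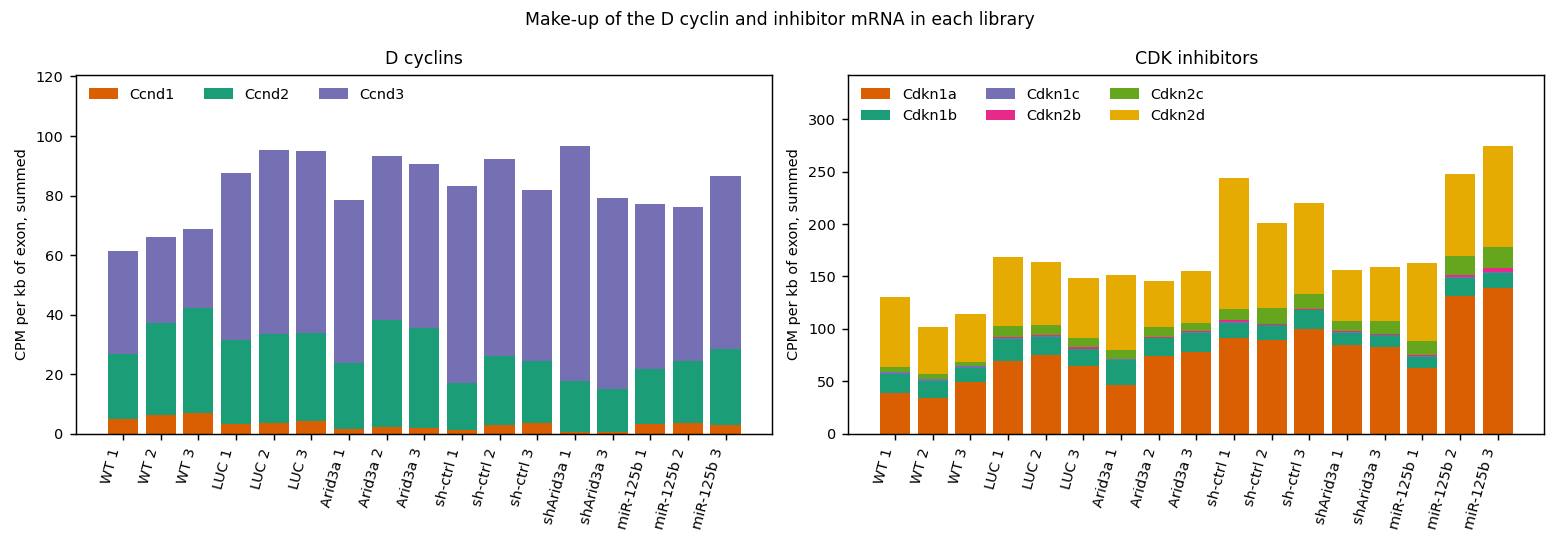
Summed CPM per kb of exon of the 3 D cyclins (left) and of the 6 inhibitors (right) in each library, stacked by gene. Ccnd3 took 46.2% of the D cyclin sum in WT and 81.3% in shArid3a, and Cdkn1a with Cdkn2d made up most of the inhibitor sum in every library.

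The 6 inhibitors summed to 115 CPM per kb in WT, 160.3 in LUC, 151 in the libraries labelled Arid3a, 222 in sh-ctrl, 157 in shArid3a and 228 in miR-125b. The sh-ctrl libraries ran from 201 to 244 CPM per kb and the shArid3a libraries from 156 to 159, with no overlap, while miR-125b ran from 163 to 274. Cdkn1a made up 42.3% of the inhibitor sum in sh-ctrl and 53.3% in shArid3a. Cdkn2d made up 43.7% in sh-ctrl and 31.6% in shArid3a. These shares are descriptions, without a test.

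The first comparison set the libraries labelled Arid3a against LUC. None of the 10 genes passed the test (edgeR quasi-likelihood test, Benjamini-Hochberg adjusted p under 0.05 over 13495 genes), and 0% of all genes tested did. At an unadjusted p under 0.05 were 1 of the 10 genes and 21.4% of all genes, and DESeq2 called 1 of the 10 and 1201 genes in all. That gene was Ccnd1, at 16.2, 17.6 and 19.8 CPM in LUC and at 7.0, 10.2 and 9.62 in the libraries labelled Arid3a, with no overlap. The difference amounted to -0.995 on the log2 scale (SE 0.17), and edgeR gave an adjusted p of 0.0786. Over 13 alternative analyses the fold change lay between -1.10 and -0.84, and the call was made in 2 of them, by DESeq2 (adjusted p 4.03e-05) and by edgeR without replicate 1 of the libraries labelled Arid3a (adjusted p 0.00224). Without that replicate edgeR called 3198 genes, among them Ccnd1, Ccnd2 (log2 fold change 0.27, edgeR adjusted p 0.0123) and Cdkn2d (-0.38, edgeR adjusted p 0.0112). The replicate stood apart in several of the 10 genes: Ccnd2 was at 209 CPM in it against 339.9 and 317 in the other libraries labelled Arid3a, Cdkn1a at 105 against 165 and 174, and Cdkn2d at 92.0 against 55.6 and 62.4.

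Non-overlapping groups were found for 3 of the 10 genes in this comparison, and for 27.6% of all genes tested. Beside Ccnd1 they were Ccnd3, with a log2 fold change of -0.12 (edgeR adjusted p 0.308), and Cdk6, with 0.17 (edgeR adjusted p 0.241). The remaining log2 fold changes ran from -0.55 for Cdkn2b (SE 0.46) to 0.10 for Cdkn1b (SE 0.15), and none of the 6 inhibitors was without overlap. The median over the 10 genes was -0.12, beside 0.01 over all genes. Mast cell and basophil markers, 10 genes, summed to 1026 CPM in replicate 1 of the libraries labelled Arid3a and to between 414 and 547 CPM in the other libraries of the table. Most of that sum was Gata2, a gene that the megakaryocyte lineage also expresses, at 812 CPM in that replicate and at 363 to 476 in LUC. In the same replicate megakaryocyte markers summed to 5735 CPM beside 3907 to 4437 in the other libraries of the table, and 4 haematopoietic markers to 98.3 beside 39.4 to 54.8. Its erythroid markers summed to 132 CPM beside 312 and 271 in the other libraries labelled Arid3a. The haematopoietic sum was also highest in replicate 1 of sh-ctrl (107 CPM beside 45.2 and 48.4) and of shArid3a (117 beside 48.6). The same held for miR-125b replicate 1 (144 beside 57.5 and 74.9), but not for LUC replicate 1 (45.1 beside 42.8 and 54.8). The part of these markers in the values above was not tested.

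**Figure D3:**
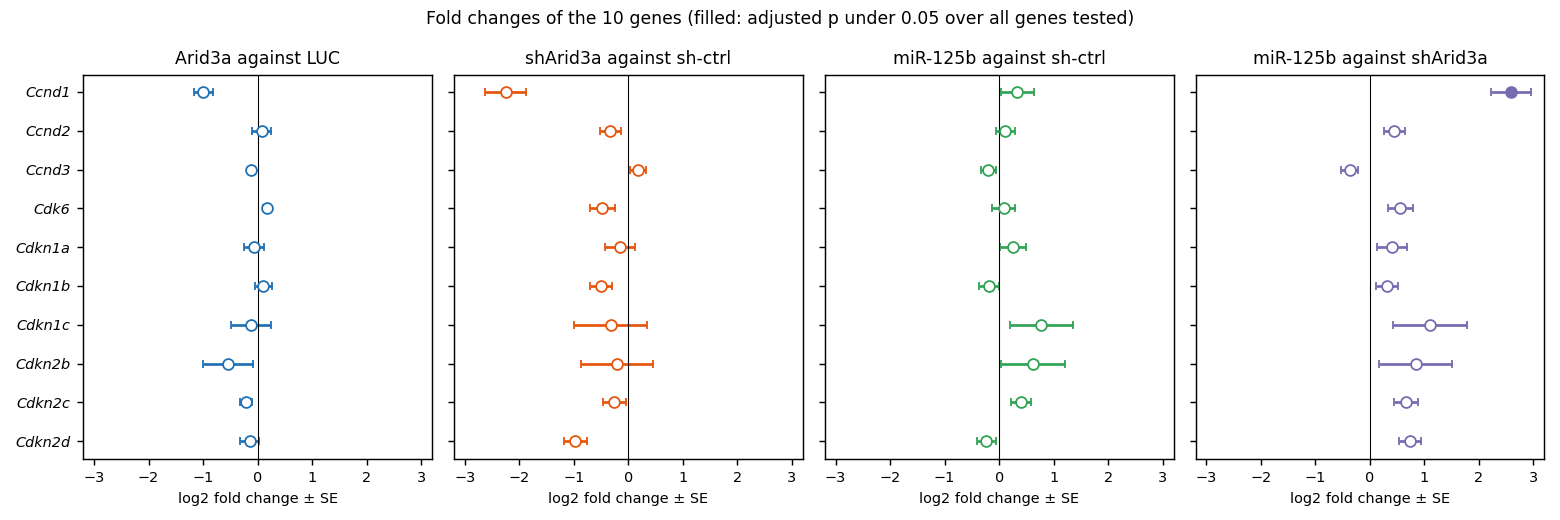
Log2 fold change of each of the 10 genes in the 4 comparisons, with its standard error. Open circles did not pass the test over all genes; the filled circle is Ccnd1 in miR-125b against shArid3a, at 2.59. The panels for shArid3a and miR-125b against sh-ctrl share their control libraries.

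The second comparison set shArid3a against sh-ctrl. None of the 10 genes passed the test, beside 0.0857% of all genes tested (12 of 14004) and 0.0357% called lower. At an unadjusted p under 0.05 were 3 of the 10 genes, Ccnd1, Cdkn2d and Cdkn1b, and 25.8% of all genes. Groups without overlap were found for 4 of the 10 genes, all lower in shArid3a, beside 43.8% of all genes in either direction and 22.2% in that one. They were these 3 genes and Cdkn1a. Fold changes were below 0 for 9 of the 10 genes, with a median of -0.33 beside -0.02 over all genes. With library totals alone in place of TMM scaling, the median of all genes moved by -0.19, and Ccnd3, the gene above 0, went from 0.18 to -0.0087.

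Ccnd1 was at 6.78, 13.6 and 16.8 CPM in sh-ctrl and at 2.72 and 2.48 in shArid3a. All control libraries lay above both hairpin libraries, and the controls were widely spread among themselves. The log2 fold change was -2.25 (edgeR adjusted p 0.0702, SE 0.37). Over 13 alternatives it lay between -2.57 and -1.99, and 4 of them made the call: no filter on low counts, a filter of 10 counts in every library (edgeR adjusted p 0.0467), DESeq2 (2.57e-08) and edgeR without sh-ctrl replicate 1 (0.00554). Without a sh-ctrl or shArid3a library other than that one, Ccnd1 was not called, with an adjusted p of up to 0.547 over the alternatives.

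Among the inhibitors, Cdkn2d was at 159, 103 and 109.8 CPM in sh-ctrl and at 61.5 and 65.0 in shArid3a, a log2 fold change of -0.97 (edgeR adjusted p 0.0989, SE 0.20). It was called without a filter (edgeR adjusted p 0.000559) and by DESeq2 (0.00110), and in none of the other 11 alternatives. Cdkn1b had a log2 fold change of -0.50 (edgeR adjusted p 0.166, SE 0.21). Cdkn1a had -0.15, Cdkn2c -0.26, Cdkn2b -0.21 and Cdkn1c -0.33, each with a standard error of at least 0.21. Cdk6, at -0.48 (SE 0.23), and Ccnd2, at -0.33 (SE 0.20), overlapped with the controls. In this comparison the 10 megakaryocyte markers held 0 called genes with a median log2 fold change of -0.45. At an unadjusted p under 0.05 were 5 of them, beside 25.8% of all genes. Below all sh-ctrl libraries lay 6, beside 22.2% of all genes, and 1 lay above, beside 21.6%. Itgb3 had a mean of 394 CPM in sh-ctrl and 148 in shArid3a, and Pf4 one of 1440 and 1910, with overlap. The 10 markers summed to 3714 to 4033 CPM in shArid3a and 3856 to 5396 in sh-ctrl. Their part in the values above was not tested.

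The third comparison set miR-125b against the same sh-ctrl libraries. None of the 10 genes passed the test, beside 24.4% of all genes tested, and none had an unadjusted p under 0.05, beside 39.8% of all genes. None of the 10 had groups without overlap, beside 44.9% of all genes, 22% higher and 23% lower. Ccnd1 was at 15.5, 16.6 and 14.8 CPM in miR-125b, among the upper control values, with a log2 fold change of 0.33 (edgeR adjusted p 0.429, SE 0.30). Ccnd2 had 0.12 (SE 0.17), Ccnd3 -0.20 (SE 0.14) and Cdk6 0.08 (SE 0.20). The inhibitors ran from -0.24 for Cdkn2d (SE 0.18) to 0.77 for Cdkn1c (SE 0.58). The lowest adjusted p of the 10 genes, 0.138 by edgeR, was that of Cdkn2c, with a log2 fold change of 0.40 (SE 0.19) and 36.8, 49.9 and 53.1 CPM beside 28.4, 39.1 and 38.5. An adjusted p above the threshold does not show that a level was the same.

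For Cdkn1a, 1 library decided the result in miR-125b. Replicate 1 was at 140.3 CPM and the others at 292 and 309.8, all sh-ctrl libraries lying between 198 and 221. The log2 fold change was 0.26 (edgeR adjusted p 0.465, SE 0.24) with all libraries and 0.54 (SE 0.13, edgeR adjusted p 0.0315) without replicate 1. The same library was the lowest of its group in Cdkn1b, Cdkn2b, Cdkn2c and Cdkn2d, and also in Ccnd2 and Cdk6. Of cell cycle genes described below, it was the lowest in Rbl2 and Mki67 and the highest in Cdk4, Cks1b, Tyms and Pcna. A list of 20 genes of S phase and mitosis summed to 6817 CPM in it, beside 6046 and 5315. Its myeloid, mast cell and haematopoietic markers summed to 126, 637 and 144 CPM. The other libraries of the group had 92.5 and 170.3, 277 and 274, and 57.5 and 74.9. A higher haematopoietic sum in replicate 1 was also seen in sh-ctrl, shArid3a and Arid3a, as given above. The part of these genes and markers in the Cdkn1a value was not tested.

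The last comparison set miR-125b against shArid3a, which tests the difference between the treatments without the shared controls. Of the 10 genes 1 passed, Ccnd1, beside 1.35% of all genes tested (189 of 14004). Ccnd1 was higher with miR-125b, at 15.5, 16.6 and 14.8 CPM against 2.72 and 2.48, a log2 fold change of 2.59 (edgeR adjusted p 0.0121, SE 0.37). The 3 miR-125b libraries lay close together, as did the 2 shArid3a libraries. Over 13 alternatives the fold change lay between 2.52 and 2.65 and 10 kept the call. It was lost without shArid3a replicate 1 (edgeR adjusted p 0.115), shArid3a replicate 3 (0.0639) or miR-125b replicate 2 (0.0655). Arid3a was lower in miR-125b than in shArid3a, with a log2 fold change of -1.13 (edgeR adjusted p 0.0240), a call made in 8 of 13 alternatives. It was lost with only the 2 groups compared (edgeR adjusted p 0.0815), without shArid3a replicate 1 (0.164) or 3 (0.0633), and without miR-125b replicate 2 (0.0812) or 3 (0.0511). Myeloid markers moved in the same comparison: 2 of 8 tested were called, Mpo and Lyz2, both higher in miR-125b, and their list of 10 summed to 92.5 to 170.3 CPM there and to 38.9 to 68.7 in shArid3a, where Ly6c2 had no reads. Of the 10 megakaryocyte markers 1 was called, Gp1bb, a subunit of a platelet receptor, higher in miR-125b with a log2 fold change of 1.09 (edgeR adjusted p 0.0221). The part of these markers in the Ccnd1 difference was not tested.

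Apart from Ccnd3, at -0.38 (SE 0.15), all 9 other genes had fold changes above 0 in that comparison, with a median over the 10 of 0.61 beside -0.01 over all genes. Groups without overlap were found for 6 of the 10, 5 higher and 1 lower, beside 29.8% of all genes, 14.4% higher and 15.4% lower. At an unadjusted p under 0.05 were 6 of the 10 genes, beside 14.5% of all genes. Cdkn2d had a log2 fold change of 0.74 (edgeR adjusted p 0.113, SE 0.20) and Cdkn2c one of 0.66 (SE 0.21, edgeR adjusted p 0.178). Cdk6 was at 0.56 (SE 0.23) and Ccnd2 at 0.45 (SE 0.20). Cdkn2d was called in 2 of 13 alternatives, without a filter and by DESeq2, and Cdkn1a in 1, without miR-125b replicate 1 (0.69, edgeR adjusted p 0.0423).

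**Figure D4:**
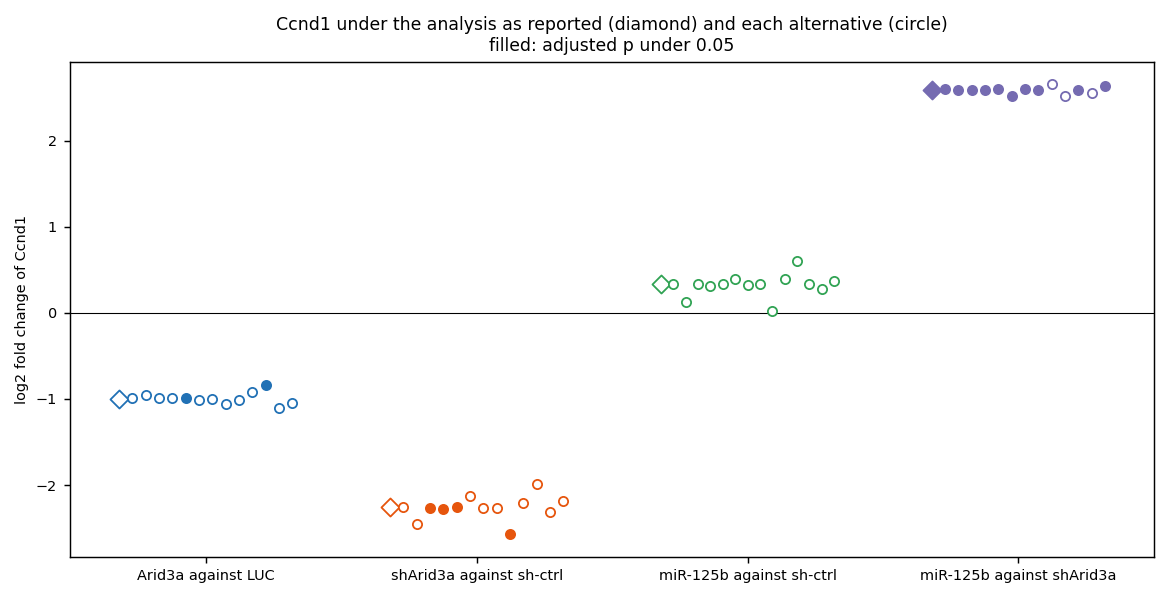
Log2 fold change of Ccnd1 in the 4 comparisons under the analysis as reported (diamond) and under each alternative (circle), filled where the adjusted p was under 0.05. The values lay between -1.10 and -0.84, -2.57 and -1.99, 0.02 and 0.61, and 2.52 and 2.65, from left to right.

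Reads of Ccnd1 may not all be its own. Of its 4709 exonic bases, 1100 overlap exons of LTO1 on the opposite strand, and the sources used here do not say whether reads were counted by strand. LTO1 itself had log2 fold changes of -0.26 in the libraries labelled Arid3a, -0.07 in shArid3a, -0.20 in miR-125b and -0.13 in miR-125b against shArid3a. Ccnd3 shares 361 of 8775 exonic bases with Bysl, which had fold changes of 0.54 in shArid3a and 0.64 in miR-125b. The exonic overlaps of Ccnd2 and Cdk6 are with antisense transcripts of at most 17 reads in a library. Cdkn1c shares 625 of 2039 bases with the antisense transcript Gm44732, which had 0 reads in the WT libraries. Cdkn1a shares 273 of 3553 bases with AC167363.2 on the opposite strand, for which no counts were found.

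Because a microRNA acts on transcripts that pair with its seed, the annotated 3′ UTRs of the 10 genes were searched for the seed of the miR-125b arm that carries this name, miR-125b-5p. Its mature sequence (RefSeq, GRCm38.p6) is shown with the seed, bases 2 to 8, in capitals, and below it are the sites that the comparison rests on, with the matching letters in capitals, 5′ to 3′.

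mmu-miR-125b-5p: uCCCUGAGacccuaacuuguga

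Cdkn2d site: aggatctctggttattTCAGGGAc

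E2f2 site 1: ggccttccacctaccCTCAGGGAg

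E2f2 site 2: agggagcctgggtttCTCAGGGgc

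Arid3a site 1: agtggcctcctgtgcCTCAGGGAt

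Arid3a site 2: tccatgggtaactggCTCAGGGAt

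The Cdkn2d site lies at chr9:21290441-21290464 on the minus strand, the E2f2 sites at chr4:136194326-136194349 and chr4:136194344-136194367 and the Arid3a sites at chr10:79952872-79952895 and chr10:79953805-79953828, all on the plus strand (GRCm38). The longest annotated 3′ UTR of each gene was searched on the sense strand for CTCAGGG, the match to the whole seed, for CTCAGGGA, which holds it with 1 more base, and for TCAGGGA, which lacks its first base and also lies inside CTCAGGGA. None of the 10 genes held CTCAGGG or CTCAGGGA, which occurred in 15.7% and 5.53% of 11505 tested genes. Cdkn2d held the only TCAGGGA, letters that 14.5% of those genes had, alone or inside CTCAGGGA. The UTRs of the 10 genes ran from 373 bases in Cdkn2c to 10217 in Cdk6; CTCAGGG was found in 26.4% of genes with a UTR of like length to Ccnd1, 37.0% for Ccnd2 and 46.5% for Cdk6. No match says only that these letters are not in the annotated UTR. Arid3a, which fell with miR-125b, held 6 copies of CTCAGGG, 2 of them in CTCAGGGA, and E2f2, described next, held 2 and 1. CTCAGGG was found in 28.9% of genes with a UTR of like length to Arid3a and in 28.6% for E2f2. Rbl2 and Mki67, which also fell with miR-125b and are described below, held none of the letters searched for.

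The partners of these genes at the entry into S phase were read from a list of 22 genes, all of which were tested. In miR-125b against sh-ctrl, 2 rose and 4 fell, beside 24.4% called over all genes, so the count was near that share. The median log2 fold change of the list was 0.03, beside -0.03 over all genes. E2f2, an E2F factor that drives S phase genes, was at 72.1, 68.3 and 58.4 CPM in sh-ctrl and at 20.7, 21.3 and 12.2 in miR-125b, with no overlap. Its log2 fold change was -1.88 (edgeR adjusted p 0.00332, SE 0.24), and the call was kept in all 14 alternatives run. Cdk4, the other kinase of the D cyclins, rose by 0.86 (SE 0.17, edgeR adjusted p 0.00937), from 390.3, 409 and 307 CPM to 783, 646 and 581, and was also called in all 14. Rbl2, a relative of the retinoblastoma protein, fell by 0.92 (SE 0.21, edgeR adjusted p 0.0150), and Cks1b, a subunit that binds cyclin-dependent kinases, rose by 0.79 (SE 0.19, edgeR adjusted p 0.0181). Rbl2 lost the call without sh-ctrl replicate 3, and Cks1b without that library and without miR-125b replicate 1. Rb1 and Tfdp2 were the other genes that fell, by 0.63 and 0.50 (edgeR adjusted p 0.0394 and 0.0430).

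Markers of cell types were read in the same comparison, where 24.4% of all genes were called. The counts called in the mast cell and basophil list and in the erythroid list were near that share. Of 10 megakaryocyte markers 1 rose, Gp1bb, and 4 fell, Itgb3, Itga2b, Gp6 and Vwf. Itgb3, an integrin of platelets and their precursors, was at 390 to 402 CPM in sh-ctrl and at 69.9 to 168 in miR-125b; the list summed to 3856 to 5396 CPM and 3442 to 4408. Of 8 myeloid markers tested 3 rose, Mpo, Lyz2 and Elane, and the list summed to 61.8 to 106 CPM in sh-ctrl and 92.5 to 170.3 in miR-125b. Of 10 mast cell and basophil markers 2 rose, Prss34 and Mcpt8, with list sums of 185 to 401 CPM and 274 to 637. Of 7 erythroid markers tested 2 fell, the globin genes Hbb-bs and Hbb-bt, with list sums of 325 to 580 CPM and 173 to 212, and Slc4a1 had no reads in either group. Both hepatocyte markers tested, Afp and Apoa2, rose, with list sums of 0.762 to 1.27 CPM and 3.95 to 5.84, while Ttr, Serpina1a and Hnf4a had no reads in either group. The part of these markers in the changes of E2f2, Cdk4, Rbl2, Cks1b and the other cell cycle genes was not tested.

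In shArid3a against sh-ctrl none of the 22 was called, beside 0.0857% of all genes, and 5 had an unadjusted p under 0.05, near the 25.8% of all genes. E2f2 was at 87.7 and 54.8 CPM there, a log2 fold change of 0.11 (edgeR adjusted p 0.823, SE 0.26). Cdk4 was at 475 and 557 CPM (log2 fold change 0.48, SE 0.18, edgeR adjusted p 0.142), Rbl2 at 47.8 and 29.7 (-0.34) and Cks1b at 229 and 317 (0.83). E2f2 was the gene of the list that differed between miR-125b and shArid3a, with a log2 fold change of -1.98 (edgeR adjusted p 0.00899, SE 0.26). The call was lost without shArid3a replicate 1, with -1.61 and an edgeR adjusted p of 0.0802. In the libraries labelled Arid3a none of the 22 was called, beside 0% of all genes, and 10 had an unadjusted p under 0.05, beside 21.4% of all genes.

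**Figure D5:**
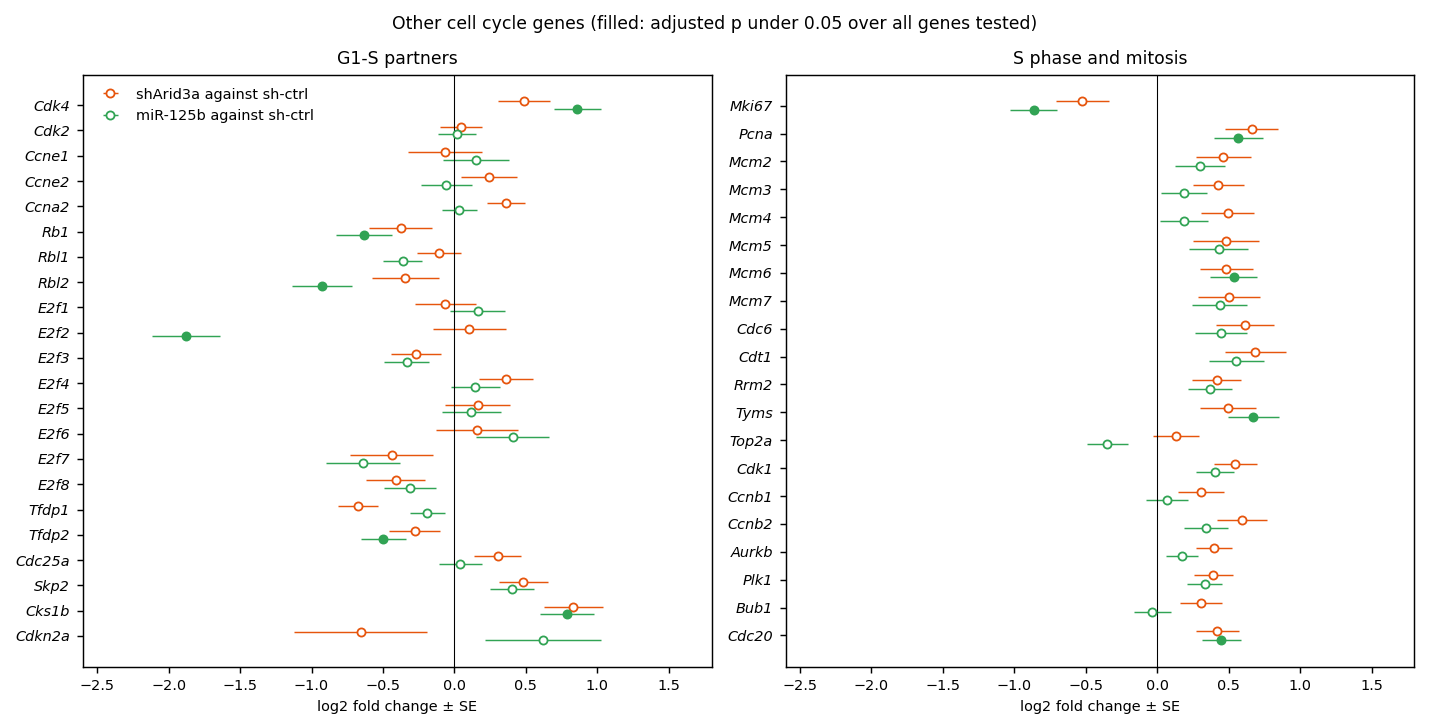
Log2 fold change and standard error of 22 genes of the entry into S phase (left) and 20 genes of S phase and mitosis (right), in shArid3a and in miR-125b, both against sh-ctrl, whose libraries they share. Filled circles passed the test over all genes; E2f2 was at -1.88 in miR-125b and at 0.11 in shArid3a.

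Genes that act in S phase and mitosis were read from a second list of 20, all tested. With miR-125b, 4 rose and 1 fell, beside 24.4% called over all genes, so the count was near that share. The median log2 fold change was 0.36 beside -0.03 over all genes. Mki67, a marker of cycling cells, fell by 0.86 (SE 0.16, edgeR adjusted p 0.00909), from 490.4, 561 and 659 CPM to 279, 333 and 328. Tyms, which makes thymidylate for DNA synthesis, rose by 0.67 (edgeR adjusted p 0.0245), Pcna, the sliding clamp of DNA polymerase, by 0.57 (0.0351) and Cdc20, an activator of the anaphase-promoting complex, by 0.45 (0.0388). With library totals alone Tyms, Pcna and Cdc20 had adjusted p of 0.0506, 0.0685 and 0.137, and each also lost the call without some single libraries. The annotated copy Pcna-ps2 had up to 266 reads in a library, so reads of Pcna may be split with it. Mcm6, a subunit of the replicative helicase, was the other gene that rose, by 0.53 (edgeR adjusted p 0.0418).

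With shArid3a none of these 20 genes was called, although 16 had an unadjusted p under 0.05 and 18 lay above all sh-ctrl libraries, beside 25.8% and 21.6% of all genes. Their median log2 fold change was 0.47 beside -0.02 over all genes. Mki67 was the gene below 0, at -0.52 (SE 0.18, edgeR adjusted p 0.130). Pcna was at 752 and 891 CPM in shArid3a against 523, 583 and 450.2, a log2 fold change of 0.66 (edgeR adjusted p 0.101, SE 0.19). In the same libraries Ccnd1 and Cdkn2d were below all controls, as given above.

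Genes whose pattern was most like that of Ccnd1 and of Ccnd3 were found by the root mean square difference of centred log2 CPM over the 17 libraries among 8611 genes. For Ccnd1 these were Capn2, a calpain protease, at 0.47, and Glce, an enzyme of heparan sulfate synthesis, at 0.54. Capn2 was at 35.1 CPM in WT, 18.1 in LUC, 13.5 in the libraries labelled Arid3a, 7.91 in sh-ctrl, 3.46 in shArid3a and 23.9 in miR-125b. For Ccnd3 they were Psmf1, a proteasome inhibitor, at 0.10, and Usp39 at 0.13. Ccnd1 itself varied by 0.97 about its mean and Ccnd3 by 0.41 on that scale. The libraries of a table share their scaling and processing, so these distances are descriptions.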

How the data were processed

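RNA was isolated with a Zymo kit and sequenced with Illumina libraries, per the labels. The submitters' processing notes name fastp, HISAT2 2.0.5, featureCounts and mm10, without the role of each; use of strand is not given in the sources used here. The values the authors deposited are raw counts of reads per gene, not normalized, in 3 tables of 47069, 47069 and 47643 genes, joined by Ensembl identifier. Columns were matched to libraries by the labels, and groups come from the labels alone. The 10 genes and all gene lists were chosen with earlier results of these data known.

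Counts were scaled by TMM within each table and genes kept by filterByExpr. Each table was fitted in edgeR 4.0.16 (R 4.3.3; glmQLFit and glmQLFTest, a coefficient for each group), with Benjamini-Hochberg adjustment over all genes tested and a threshold of 0.05. The 8 libraries of the hairpin and miR-125b table were fitted together, with a spread estimated from all of them. Standard errors were derived from the F statistics. No test was made between tables.

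The text names all 10 genes, Arid3a, up to 4 genes of each pathway list with the smallest adjusted p in miR-125b against sh-ctrl (Rb1, Tfdp2, Mcm6 and the cell type markers are named in addition, chosen after their values were seen), and the 2 genes most like each D cyclin among genes with a mean log2 CPM of 3 or more (those for Ccnd2 are not reported here). Alternatives were RLE scaling, library totals, no filter, 10 counts in every library, DESeq2 1.42.0, a replicate block, no ribosomal RNA-like genes, only the 2 groups compared, and each library left out. Same-numbered sh-ctrl and miR-125b libraries deviated together (r = 0.449, 0.148 and 0.492 over 8662 genes). Those of LUC and Arid3a did not all do so (0.0772, 0.316 and -0.162). Same-numbered sh-ctrl and shArid3a libraries gave 0.273 and -0.115. Deviations of 2 libraries from their mean mirror each other, so the shArid3a values cannot test a pairing. Some differently numbered libraries also deviated together, as sh-ctrl replicate 3 with miR-125b replicate 2 (0.289) and LUC replicate 3 with Arid3a replicate 1 (0.214). The numbers thus do not settle a pairing. The tests as reported used no pairs, and only the replicate block did. The models were also run on simulated counts with known changes, drawn with the fitted spread. Those counts hold no effects of single libraries or batches, so that run cannot show how calls hold against them. Counts are reads without molecular identifiers, so depth limits cover counting error only. The deposited positions of Cdkn1a, Cdkn2b and Cdkn2d differ from those of GENCODE M21.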

Additional observations from a re-analysis of the deposited data

Results flagged for a closer look

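Effects of shArid3a and miR-125b, both measured against sh-ctrl, differed for Ccnd1, for Arid3a and E2f2, and for 3 of the cell type markers, by a test of the difference itself (edgeR quasi-likelihood test, adjusted over 14004 genes). Ccnd1 was higher in miR-125b than in shArid3a by a log2 fold change of 2.59 (edgeR adjusted p 0.0121), all 3 miR-125b libraries lying above both shArid3a libraries. E2f2 was lower in miR-125b, with a log2 fold change of -1.98 (edgeR adjusted p 0.00899), and so was Arid3a, with -1.13 (edgeR adjusted p 0.0240), each in all 3 libraries. The myeloid markers Mpo and Lyz2 were higher in miR-125b by 7.91 and 2.52 (edgeR adjusted p 0.00899 and 0.0240) and the megakaryocyte marker Gp1bb by 1.09 (edgeR adjusted p 0.0221), again without overlap. The calls of Ccnd1, E2f2 and Arid3a were each lost without some single libraries, as given above.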

How the results depend on the processing

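Of the 10 genes, DESeq2 called 1 in Arid3a against LUC, 2 in shArid3a against sh-ctrl and 2 in miR-125b against shArid3a. Without a filter edgeR called 2 in shArid3a against sh-ctrl and 2 in miR-125b against shArid3a, and with 10 counts in every library 1 in shArid3a against sh-ctrl. With 1 library left out, the counts were 0 to 3 in Arid3a against LUC, 0 to 1 in shArid3a and 0 to 1 in miR-125b against sh-ctrl, and 0 to 2 in miR-125b against shArid3a. Where this leaves 1 shArid3a library, that library is assumed to vary like the others. Over all genes, Arid3a against LUC had 71 calls without a filter, 1201 by DESeq2 and 0 to 3198 with 1 library left out, where the highest count came without Arid3a replicate 1. In shArid3a against sh-ctrl, with 12 calls, it was 20 with library totals, 1237 without a filter, 19 with 10 counts, 1326 by DESeq2, 0 without ribosomal RNA-like genes and 2 to 11 with 1 library left out. At an unadjusted p under 0.05 were 3616 genes there and 2885 in Arid3a against LUC. In miR-125b against sh-ctrl, with 3414 calls, it was 734 (without sh-ctrl replicate 3) to 2872 with 1 library left out. It was higher by DESeq2, at 4220, without a filter, at 3988, and with only the 2 groups compared, at 3588. Library totals kept the count there but moved the split from 1700 higher and 1714 lower to 890 and 2452. In miR-125b against shArid3a, with 189 calls, it was 715 without a filter, 741 by DESeq2 and 12 (without shArid3a replicate 1) to 329 (without miR-125b replicate 1). The cause of these differences was not tested.

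With the replicate block, edgeR called 15 genes in shArid3a and 3687 in miR-125b against sh-ctrl, 255 in miR-125b against shArid3a and 0 in Arid3a against LUC. Ccnd1 was then at -1.01 in Arid3a against LUC, at -2.13 (shArid3a) and 0.39 (miR-125b) against sh-ctrl, and at 2.52 between both treatments. The block changed no call of the 10 genes; Cdc20 lost its call in miR-125b (edgeR adjusted p 0.0501).

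Fold changes that turned sign were all uncalled. With library totals they were Cdc20 in Arid3a against LUC (0.017), Ccnd3 (-0.0087) and E2f2 (-0.072) in shArid3a, and Ccnd2 (-0.074) and Cdk6 (-0.12) in miR-125b against sh-ctrl; with the block it was Cdc20 in miR-125b against shArid3a (-0.014). With 1 library left out, values in Arid3a against LUC ran from -0.063 to 0.27 for Ccnd2, -0.20 to 0.14 for Cdkn1a, -0.053 to 0.21 for Cdkn1b, -0.41 to 0.033 for Cdkn1c, -0.019 to 0.21 for Arid3a and -0.049 to 0.0037 for Cdc20. In shArid3a they ran from -0.71 to 0.24 for Cdkn1c and -0.27 to 0.41 for E2f2. In miR-125b against sh-ctrl they ran from -0.043 to 0.23 for Ccnd2, -0.098 to 0.27 for Cdk6 and -0.17 to 1.08 for Cdkn2b. In miR-125b against shArid3a they ran from -0.26 to 0.20 for Cks1b, -0.013 to 0.38 for Tyms, -0.23 to 0.031 for Pcna and -0.11 to 0.17 for Cdc20. Of 60 levels given as group means, 17 moved by more than 1 SD when all libraries were scaled together and 7 with library totals. Cdkn1c and Cdkn2b rest on few reads, which limits their precision. None of the 10 genes held CTCAGGG, so a search for CTCAGGGA alone, which contains it, could only give 0 and tests nothing further.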

Other observations

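Cdkn2a, the neighbour of Cdkn2b on chromosome 4, encodes both an INK4 inhibitor and an activator of the p53 pathway from overlapping reading frames, and gene counts do not tell its transcripts apart. It had no reads in any of the 3 WT libraries, which allows up to 0.183, 0.160 and 0.156 CPM (3 counts per library). It was at 38.5, 44.6 and 37.2 CPM in LUC, 28.2, 30.1 and 34.1 in the libraries labelled Arid3a, and 59.9, 67.9 and 57.0 in sh-ctrl. In shArid3a it was at 21.3 and 56.9 CPM, and in miR-125b at 42.4, 104 and 138. As for Cdkn1a, Cdkn2b and Cdkn2c, replicate 1 was the lowest of the miR-125b libraries. Cdkn2a was called in none of the 4 comparisons by edgeR. Guide, transgene, doxycycline, table and the make-up of the cells, as read from markers, cannot be told apart between WT and the Gata1s groups.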
